A study of Mus musculus with 6 samples.

Results

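ETS factors are transcription factors that share 1 DNA-binding domain, and 10 of them were described here in splenic B cells of p80HT and wild-type (WT) mice. They comprise 3 factors of epithelia (Ehf, Elf3 and Elf5) and 7 factors that lymphocytes carry (Elf1, Elf4, Spib, Ets1, Ets2, Fli1 and Etv6). The 10 genes were chosen by name, with the p80HT and WT values of these arrays already known, out of 19938 genes with a probeset of their own on the array. For each gene, the probeset with the highest mean over the 6 arrays was taken, whichever group was higher. The values of the 10 genes in the 2 genotypes therefore describe these mice and carry no test.

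The 6 samples were RNA of splenic B cells from 3 WT and 3 p80HT mice, 1 mouse per array, hybridised to the Affymetrix Mouse Gene 1.0 ST array. All mice were 1 year old and of the C57BL/6J x SJL/J background, WT mice were littermates of the p80HT mice, and the labels name no treatment of either group. The p80HT mice carried the human coding sequence of p80HT, a C-terminally truncated NF-κB2 protein found in a lymphoma, under an H-2Kb promoter and an immunoglobulin μ enhancer that drive it in both T and B lymphocytes. They were selected for M-protein (monoclonal immunoglobulin) in their serum, so they stand for p80HT mice with such a band and not for all p80HT mice. B cells were taken with magnetic beads through B220, a surface marker of B cells that some other cells also carry. The comparison asks how RNA levels in these cells differ between mice with and without the transgene. In RNA of a whole preparation, fewer cells of a type and less RNA per cell cannot be told apart.

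ETS proteins bind DNA around a GGAA core, and their flanking letters and partner proteins set which genes each one acts on. In B cells, Spib and its relative Spi1 (PU.1) act with Irf4 or Irf8 on genes of the antigen receptor pathway, while Ets1 holds back the step from B cell to plasma cell. Ehf and Elf3 belong to an epithelium-specific branch of the family, and Elf5 is best known from mammary alveoli and trophoblast.

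Promoter windows of 250 bases before the transcription start were available from RefSeq (build GRCm38.p6) for 7 of the 10 genes, as 10 windows, and for Ehf, Ets1 and Fli1 none was available here. The windows were searched on both strands for the GGAA core, for the longer ETS motif CCGGAAG, which contains that core, and for the κB consensus that NF-κB proteins bind. The Spib window is shown because it holds 2 κB matches, the Elf3 window because it holds 1, and the Ets2 window as one without a match from a gene with lower signal in p80HT. Capitals mark κB matches. The windows are Spib at chr7:44532072-44532321 (minus strand), Elf3 at chr1:135258473-135258722 (minus strand) and Ets2 at chr16:95702157-95702406 (plus strand), each read 5′ to 3′ along its gene.
Spib: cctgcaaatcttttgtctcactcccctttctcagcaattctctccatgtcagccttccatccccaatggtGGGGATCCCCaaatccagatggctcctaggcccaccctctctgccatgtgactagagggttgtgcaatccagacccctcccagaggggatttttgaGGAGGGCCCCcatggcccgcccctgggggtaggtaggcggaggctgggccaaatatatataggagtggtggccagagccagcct
Elf3: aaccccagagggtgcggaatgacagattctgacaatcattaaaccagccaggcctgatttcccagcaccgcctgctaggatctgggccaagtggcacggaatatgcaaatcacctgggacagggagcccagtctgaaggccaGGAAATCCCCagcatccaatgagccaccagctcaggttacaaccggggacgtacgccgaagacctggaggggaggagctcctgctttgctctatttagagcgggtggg
Ets2: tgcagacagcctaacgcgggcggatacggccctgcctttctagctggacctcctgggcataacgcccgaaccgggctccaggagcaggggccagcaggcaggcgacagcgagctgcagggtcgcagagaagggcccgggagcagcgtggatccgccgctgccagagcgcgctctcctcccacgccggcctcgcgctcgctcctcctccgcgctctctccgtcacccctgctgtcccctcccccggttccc
Of all 32851 such windows, 7.25% held a κB match, 93.4% held GGAA and 6.91% held CCGGAAG. Among the 10 windows of the ETS genes, the 2 shown here with capitals were the only ones with a κB match, and 0 held CCGGAAG. The Elf3 match starts with GGAA, so it and 1 of the 4 GGAA matches of that window share letters. The Spib window held 1 GGAA and the Ets2 window 1. A match is a string of letters and not evidence that a protein binds there.

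The array of p80HT replicate 3 stood apart from the other 5 before any gene was considered. Across all probesets it correlated with them at 0.934 to 0.943, whereas the other 5 correlated with each other at 0.983 to 0.996. Pip, which encodes a secreted protein of salivary and lacrimal glands, had a log2 signal of 13.70 on it and 5.15 to 5.51 on the other 5. The B cell gene Ms4a1 was at 11.77 on it against 12.88 to 13.12, and the T cell gene Cd3e at 12.29 against 9.41 to 11.07. The values of the 10 ETS genes and of the lists below are therefore also given without that array. Array medians lay between 7.68 and 7.81. As a mark of background, the 95th percentile of 1015 olfactory receptor genes, which B cells are not known to use, was 7.31 to 7.58 on the WT arrays and 7.61, 7.68 and 7.08 on those of p80HT replicates 1, 2 and 3. Nfkb2, the mouse gene of the protein that p80HT is a form of, was at 10.79, 10.92 and 10.87 in WT and at 10.87, 10.63 and 10.57 in p80HT. The transgene is human, so these mouse probes do not check the label.

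Ehf stood about as far above WT in all 3 p80HT mice. Of the 7 lymphoid factors, 4 (Elf1, Ets1, Ets2 and Fli1) were lower in every p80HT mouse, while Elf4, Spib and Etv6 had overlapping groups and Etv6 a higher mean. The study's threshold, a 1.5-fold difference with an unadjusted p under 0.01, was applied with limma across all 19938 genes. Of the 10 ETS genes, 1 passed it as higher in p80HT (Ehf) and 1 as lower (Fli1), where 1.22% of all genes passed as higher and 0.968% as lower. In 2 genes (Ehf and Elf5) all p80HT mice were above all WT mice, and in 4 (Elf1, Ets1, Ets2 and Fli1) all were below, where 8.86% and 11.9% of all genes did so. Without p80HT replicate 3, Ehf passed as higher and Ets2 as lower, where 2.01% of all genes passed as higher and 1.45% as lower. The groups then did not overlap for Ehf, Elf5 and Spib (higher) and for Elf1, Elf4, Ets1, Ets2 and Fli1 (lower), where 19.7% and 20.5% of all genes did so. These genes were chosen with this contrast known, so the counts support nothing about the family. Adjusted for all genes by the Benjamini-Hochberg method, limma called 0.0552% of genes at an adjusted p under 0.05 with all 6 arrays and 4.67% without p80HT replicate 3.

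**Figure D1:**
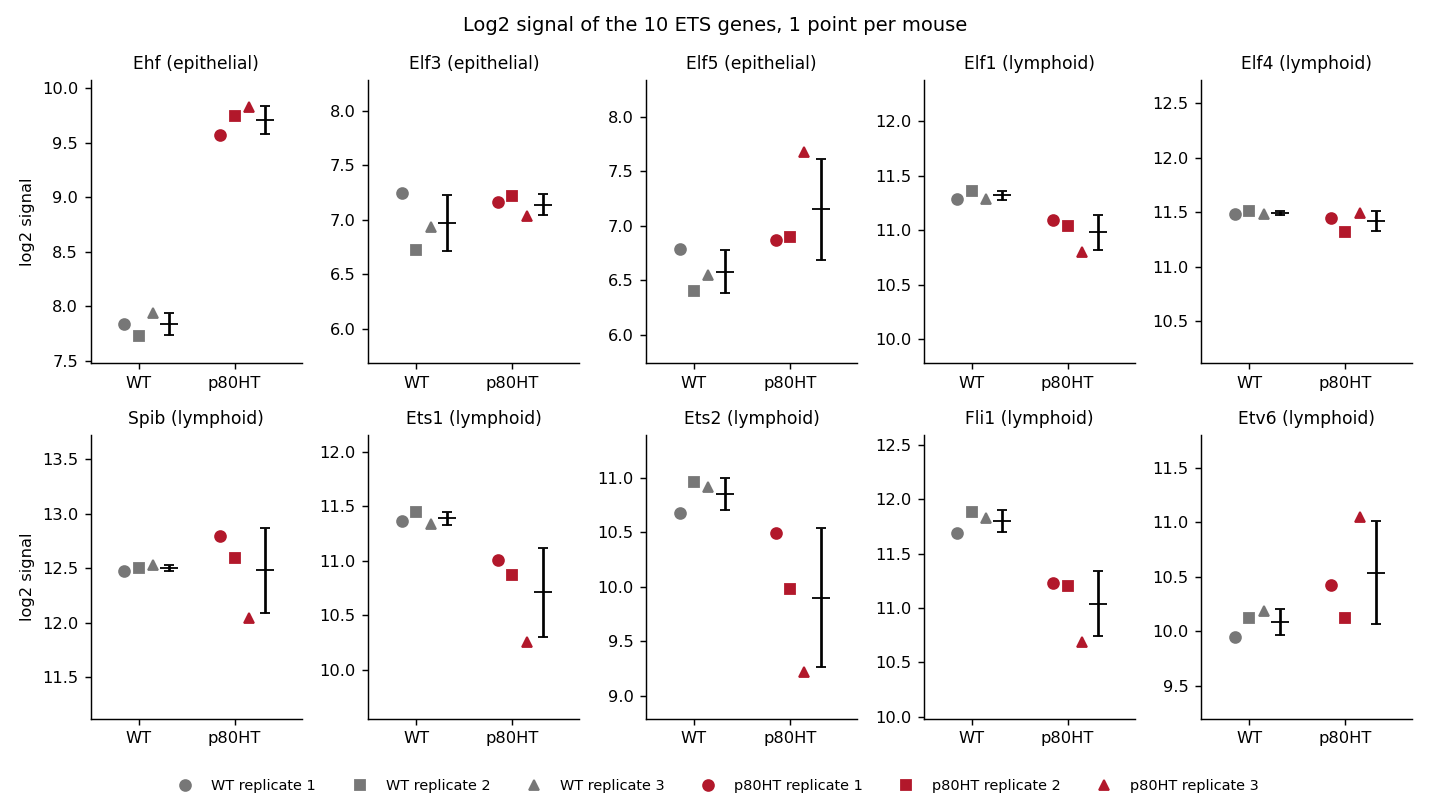
Log2 signal of the 10 ETS genes, 1 point per mouse, with the group mean and SD (n = 3 per group) as bars beside the points. Each panel spans the same number of log2 units about its own gene, so distances compare between panels but heights do not. Ehf has a gap of 1.63 between the groups, Fli1 one of 0.46, and for Spib, Etv6, Elf4 and Elf3 the groups overlap.

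Ehf, a factor of glandular and stratified epithelia, had log2 signals of 7.84, 7.73 and 7.94 in the WT mice and 9.57, 9.75 and 9.83 in the p80HT mice. All p80HT values lay above all WT values, with a gap of 1.63 between the nearest mice. The means were 7.84 ± 0.10 and 9.71 ± 0.13 (SD, n = 3 each), a difference of 1.88 (SE 0.13) on the log2 scale, or 3.67-fold. Ehf ranked 31 of 19938 genes by the size of a rise. WT signals lay between the 95th and 99th percentile of the olfactory receptor genes on each array, and the p80HT signals lay above the 99th percentile on all 3 arrays. The difference did not rest on p80HT replicate 3, whose Ehf signal exceeded the mean of the other 2 p80HT mice by 0.17, and it was 1.82 (SE 0.11, 3.53-fold) without that array.

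Elf3, a close epithelial relative of Ehf, was at 7.25, 6.72 and 6.93 in WT and 7.16, 7.22 and 7.03 in p80HT. The groups overlapped, the difference was 0.17 (SE 0.16), or 0.22 without p80HT replicate 3, and no array lay above the olfactory 95th percentile. Elf5 is the neighbour of Ehf in the genome, with 0 protein-coding genes between them. Its signals were 6.79, 6.40 and 6.55 in WT and 6.87, 6.90 and 7.68 in p80HT, a difference of 0.57 (SE 0.24) with a gap of 0.08 between the nearest mice. Its highest value, that of p80HT replicate 3, was the only one above the olfactory 95th percentile, and without it the difference was 0.30 (SE 0.13). Among the 3 epithelial factors, Ehf was thus the only one measured above background on more than 1 array.

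Ets1 and Fli1, which are neighbours with 0 protein-coding genes between them, were both lower in every p80HT mouse. Ets1 was at 11.36, 11.45 and 11.34 in WT and 11.01, 10.87 and 10.25 in p80HT, so the p80HT mice all lay below WT and replicate 3 lay lowest. The means were 11.39 ± 0.06 and 10.71 ± 0.41, a difference of -0.67 (SE 0.21, 1.60-fold lower), which was -0.44 (SE 0.11) without p80HT replicate 3. Fli1, which acts in B cell development, in megakaryocytes and in endothelium, was at 11.69, 11.88 and 11.83 in WT and 11.23, 11.20 and 10.69 in p80HT. Replicates 1 and 2 were within 0.03 of each other and again replicate 3 was lowest. The Fli1 means were 11.80 ± 0.10 and 11.04 ± 0.30, a difference of -0.76 (SE 0.18, 1.69-fold lower). It was -0.58 (SE 0.11) without p80HT replicate 3, which is just short of the 1.5-fold threshold.

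Ets2, a widely expressed factor that Ras and MAP kinase signals act on, was lower in p80HT by an amount that varied from mouse to mouse. Its signals were 10.68, 10.96 and 10.92 in WT and 10.49, 9.98 and 9.22 in p80HT. All p80HT mice were lower, but replicate 1 lay only 0.19 below the lowest WT mouse while replicate 3 lay 1.02 below the mean of the other 2 p80HT mice. The difference was -0.96 (SE 0.30, 1.94-fold lower) with all arrays and -0.62 (SE 0.16, 1.53-fold lower) without p80HT replicate 3. Elf1, a factor of T and B cells, was at 11.29, 11.36 and 11.29 in WT and 11.09, 11.04 and 10.80 in p80HT. The groups did not overlap, but the difference was small at -0.34 (SE 0.13), or -0.25 (SE 0.10) without p80HT replicate 3.

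Spib, Elf4 and Etv6 had overlapping groups. Spib, the factor most restricted to B cells and plasmacytoid dendritic cells, was at 12.47, 12.50 and 12.53 in WT and 12.80, 12.59 and 12.04 in p80HT. Replicates 1 and 2 of p80HT lay above all WT mice and replicate 3 below them, so the difference of -0.02 (SE 0.20) became 0.20 (SE 0.11) without replicate 3. Elf4, known from NK cells and CD8 T cells, was at 11.48, 11.51 and 11.48 in WT and 11.45, 11.32 and 11.49 in p80HT. Its difference was -0.07 (SE 0.12), and -0.11 without p80HT replicate 3. A second, dimmer Elf4 probeset gave -0.14. Etv6, a repressor of the family needed by blood stem cells, was at 9.95, 10.12 and 10.19 in WT and 10.43, 10.12 and 11.05 in p80HT. Replicate 3 was the highest, and the difference of 0.45 (SE 0.24) was 0.19 (SE 0.13) without it.

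The comparison of Ehf with the lymphoid factors used their mean, over genes that went both ways. The mean log2 signal of the 7 lymphoid factors was 11.27, 11.40 and 11.37 in WT and 11.22, 11.02 and 10.79 in p80HT, a difference of -0.34, or -0.23 without p80HT replicate 3. Ehf minus that mean, set to 0 at the WT mean, was 0.08, -0.16 and 0.08 in WT and 1.86, 2.24 and 2.55 in p80HT. The groups lay far apart, and the difference of 2.21 was 2.05 without p80HT replicate 3. These are differences of changes and say nothing of which factor is the more abundant, since signals of different probesets do not compare as levels.

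**Figure D2:**
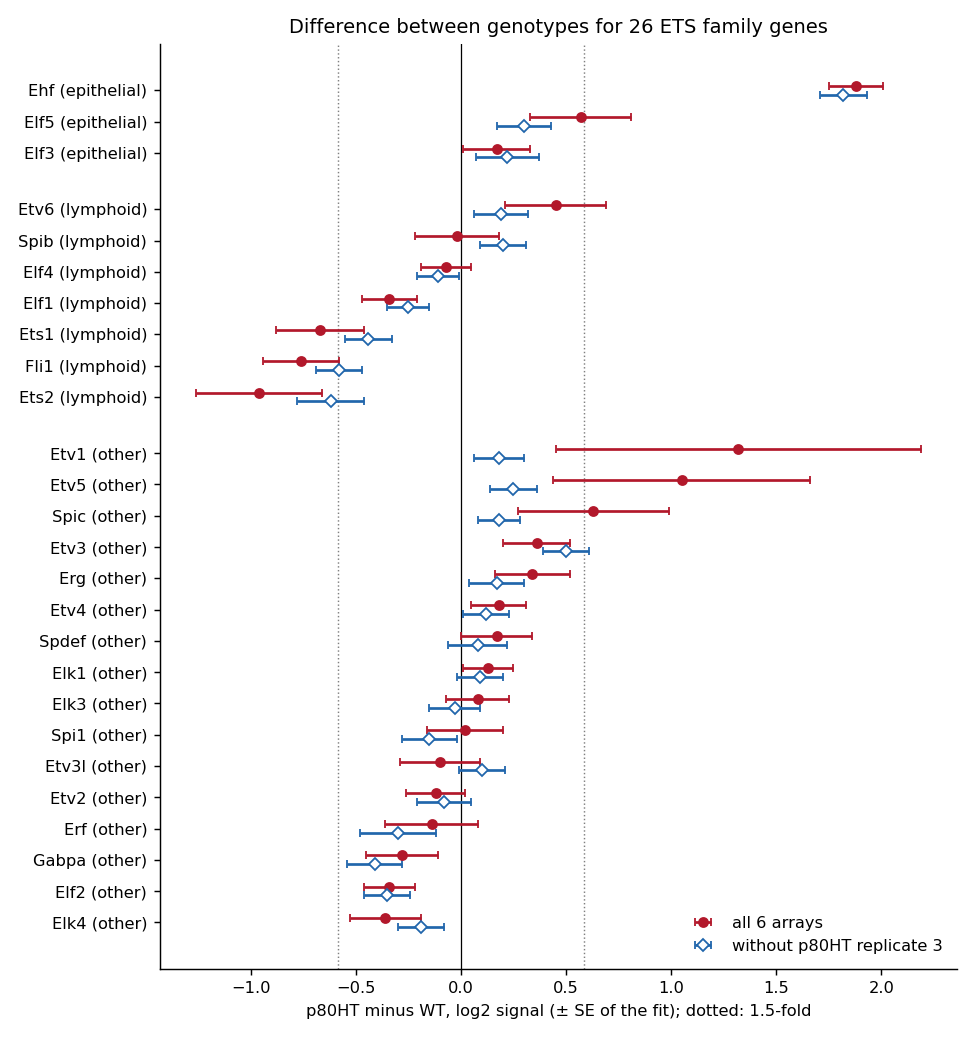
Difference between p80HT and WT in log2 signal, with the SE of the limma fit, for 26 ETS family genes with all 6 arrays (filled circles) and without p80HT replicate 3 (open diamonds). Dotted lines mark 1.5-fold. Ehf (1.88 and 1.82) has the largest difference of the 26 under both fits, but with all 6 arrays the bar of Etv1 (SE 0.87) reaches past it. Etv1 and Etv5 shrink from 1.32 and 1.05 to 0.18 and 0.25.

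The rest of the family did not share a direction. Of 17 other mouse ETS genes, 16 were measured, and with limma 0 passed the threshold as higher, 0 as lower and 0 at an adjusted p under 0.05, while 1 (Elf2) had an unadjusted p under 0.05, as 10.2% of all genes did. Their median difference was 0.10, against -0.02 over all genes, and without p80HT replicate 3 it was 0.08 against 0.04. Elf2, the nearest relative of Elf1, was at 10.65, 10.82 and 10.87 in WT and 10.47, 10.38 and 10.48 in p80HT, with all p80HT mice below all WT mice. Its difference was -0.34 (limma adjusted p = 0.427). With p80HT replicate 3 left out it was -0.35, at an adjusted p of 0.109 by limma. Etv3, a repressor of the family, differed by 0.36 (limma adjusted p = 0.514) with all arrays. Its value without p80HT replicate 3 was 0.50 with an adjusted p = 0.0372 by limma, and both remaining p80HT mice, at 11.22 and 11.01, were then above the WT range of 10.55 to 10.70. Elk4, which serum response factor recruits, and Erg, the relative of Fli1 known from endothelium, differed by -0.36 and 0.34 (limma adjusted p = 0.526 and 0.579), or by -0.19 and 0.17 with p80HT replicate 3 left out.

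Spi1, which shares sites with Spib, was at 11.36, 11.30 and 11.45 in WT and 11.40, 11.04 and 11.71 in p80HT, a difference of 0.02 with overlapping groups (limma adjusted p = 0.996), or -0.15 with p80HT replicate 3 left out. Etv1, Etv5 and Spic were singled out after their values were seen, because p80HT replicate 3 stood alone in each. Etv1 was at 6.46 to 6.71 in WT, 6.89 and 6.64 in p80HT replicates 1 and 2, and 10.21 in replicate 3. Etv5 was at 7.84 to 7.91 in WT, then 8.03 and 8.23, and 10.53 in replicate 3. A second probeset of each gene gave the same picture, with 9.24 for Etv1 and 9.93 for Etv5 on that array and at most 6.34 and 7.80 on the others. Spic, a relative of Spi1 in red pulp macrophages, was at 10.42 in replicate 3 and at 8.85 to 9.07 in the other 5 mice, a difference of 0.63, or 0.18 with that array left out.

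Genes that ETS factors are known to regulate in B cells, and the factors that work with ETS proteins there, were mostly lower in p80HT without passing the threshold. Of 9 listed target genes 8 were measured, 0 passed in either direction, 0 had an adjusted p under 0.05 and 4 had an unadjusted p under 0.05 by limma, where 10.2% of all genes did. In 5 of the 8 all p80HT mice lay below all WT mice, as in 11.9% of all genes, and the median difference of the 8 was -0.57, or -0.26 without p80HT replicate 3. P2ry10, a receptor gene that Spi1 and Spib act on, was at 10.35, 10.60 and 10.60 in WT and 10.05, 9.92 and 9.26 in p80HT. Its difference was -0.77 (limma adjusted p = 0.338), or -0.53 (limma adjusted p = 0.0368) with p80HT replicate 3 left out. Btk, a kinase of the antigen receptor pathway, differed by -0.58 (limma adjusted p = 0.342), or -0.42 (limma adjusted p = 0.073) with that array left out. Bach2, a repressor that delays plasma cell formation, was at 11.56, 11.79 and 11.61 in WT and 10.84, 10.90 and 9.43 in p80HT. It missed the threshold at -1.26 (limma adjusted p = 0.349) and was the only target to pass it without p80HT replicate 3, at -0.78 (limma adjusted p = 0.00423). Without that array 1.45% of all genes passed as lower. Of the 8 targets, 2 (P2ry10 and Bach2) then had a limma adjusted p under 0.05, where 4.67% of all genes did.

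All 7 partner factors were measured, 0 passed in either direction, and 1 had an unadjusted p under 0.05 by limma, where 10.2% of all genes did. Their median difference was -0.63, or -0.21 without p80HT replicate 3. In 4 of the 7 all p80HT mice lay below all WT mice, as in 11.9% of all genes. Ebf1 differed by -1.21 (limma adjusted p = 0.526), or by -0.46 (limma adjusted p = 0.0426) without that array. It was then the 1 partner with an adjusted p under 0.05, where 4.67% of all genes had one. Runx1, which binds DNA together with Ets1, was at 11.45, 11.51 and 11.59 in WT and 11.18, 11.04 and 10.42 in p80HT, a difference of -0.63 (limma adjusted p = 0.391) that was -0.40 with p80HT replicate 3 left out. Pax5, the factor that keeps B cell identity and recruits Ets1, differed by -0.75 (limma adjusted p = 0.495), or by -0.36 without p80HT replicate 3. Irf4 was at 12.08 and 12.05 in p80HT replicates 1 and 2 and at 10.34 in replicate 3, against 12.18 to 12.35 in WT. Irf8 differed by 0.16, or 0.07 with that array left out, with overlapping groups. Blk, Blnk, Cd79a, Pax5 and Ebf1 are also markers of B cells, so these lists and the B cell markers overlap.

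Marker lists of B cells and of other cells also differed between the arrays. B cell markers were present on every array, with all 10 measured (of 11 listed) above the olfactory 95th percentile. Their mean log2 signal was 12.33, 12.53 and 12.45 in WT and 12.14, 12.00 and 10.55 in p80HT, with 0 past the threshold and a median difference of -0.61, or -0.25 without p80HT replicate 3. Cr2 and Fcer2a, receptors of mature B cells, differed by -1.99 and -1.80 (limma adjusted p = 0.394 and 0.410). Both passed the threshold as lower without p80HT replicate 3 (limma adjusted p = 0.0021 and 0.00367), where 1.45% of all genes did. Cr2 then stood at -1.13. Of the 10 B cell markers, 3 (Cr2, Fcer2a and Ebf1) then had a limma adjusted p under 0.05, where 4.67% of all genes did. Of 14 measured T cell markers (of 17), 3 rose and 0 fell past the threshold, where 1.22% of all genes rose, with a median difference of 1.28. Without p80HT replicate 3, 11 rose, where 2.01% of all genes did, with a median of 0.65. Their mean log2 signal was 8.47, 8.75 and 8.61 in WT and 9.44, 9.25 and 10.79 in p80HT. The 3 were Cd3g (2.03) and Cd3e (1.74), chains of the T cell receptor complex, and Bcl11b (0.94), a factor of T cell commitment, each with a limma adjusted p above 0.05 (0.256, 0.211 and 0.163). Their differences were 1.41, 1.28 and 0.76 with p80HT replicate 3 left out, where all 3 passed too (limma adjusted p = 0.000297, 0.00147 and 0.00299). Of the 14 T cell markers, 10 then had a limma adjusted p under 0.05, where 4.67% of all genes did. T cells carry Ets1, Fli1, Elf1 and Elf4 too. The part of these marker differences in the lower signals of the lymphoid ETS factors was not tested.

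For Ehf, epithelial markers are the list of interest. Of 20 measured (of 21), 0 passed in either direction, 11 were higher in all p80HT mice than in all WT mice (8.86% of all genes were), and the median difference was 0.32, or 0.26 without p80HT replicate 3. Between 8 and 11 of the 20 were at or below the olfactory 95th percentile on each array but that of p80HT replicate 3, where 3 were. Their linear signals summed to 4256 to 4756 in WT and to 5570, 5626 and 6879 in p80HT. The defining markers Epcam and Cdh1 were at 7.35 to 7.59 and 7.20 to 7.23 in WT, at 7.65 and 7.87 and at 7.47 and 7.54 in p80HT replicates 1 and 2, and at 8.63 and 8.12 in replicate 3. Spint2, a protease inhibitor of epithelia, was at 9.04 to 9.13 in WT and 9.51, 9.66 and 9.75 in p80HT, a difference of 0.56 (limma adjusted p = 0.221, and 0.0289 without p80HT replicate 3). Cldn7, a tight junction gene, differed by 0.41 (limma adjusted p = 0.364), or 0.39 with that array left out. Cldn7 lay above the olfactory 95th percentile on 2 of the 6 arrays and Cdh1 on 1, that of p80HT replicate 3. Spint1 differed by 0.84 (limma adjusted p = 0.373), or 0.52 (limma adjusted p = 0.0265) without p80HT replicate 3. Of the 20, 2 (Spint1 and Spint2) then had an adjusted p under 0.05, where 4.67% of all genes did. Gland markers stood out on 1 array. The 11 salivary and lacrimal genes had a mean log2 signal of 6.56 to 6.80 in WT, 6.72 and 6.98 in p80HT replicates 1 and 2 and 11.52 in replicate 3, with a median difference of 1.44 that was 0.10 without it. In limma 0 of the 11 passed the threshold, Muc19 and Dcpp1 having the smallest p at differences of 2.23 and 1.44 (limma adjusted p = 0.594 and 0.606). With p80HT replicate 3 left out, these differences were 0.54 and 0.33 (limma adjusted p = 0.0386 and 0.202). Muc19 was then about at background. It lay below the olfactory 95th percentile in WT (7.06 to 7.35) and just above it in p80HT replicates 1 and 2 (7.63 and 7.79, against 7.61 and 7.68). Ehf was 1.73 above its WT mean in p80HT replicate 1 and 1.91 in replicate 2, where the gland list stood at 0.03 and 0.29 above its own. The part of the small epithelial shift in the Ehf signal was not tested.

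**Figure D3:**
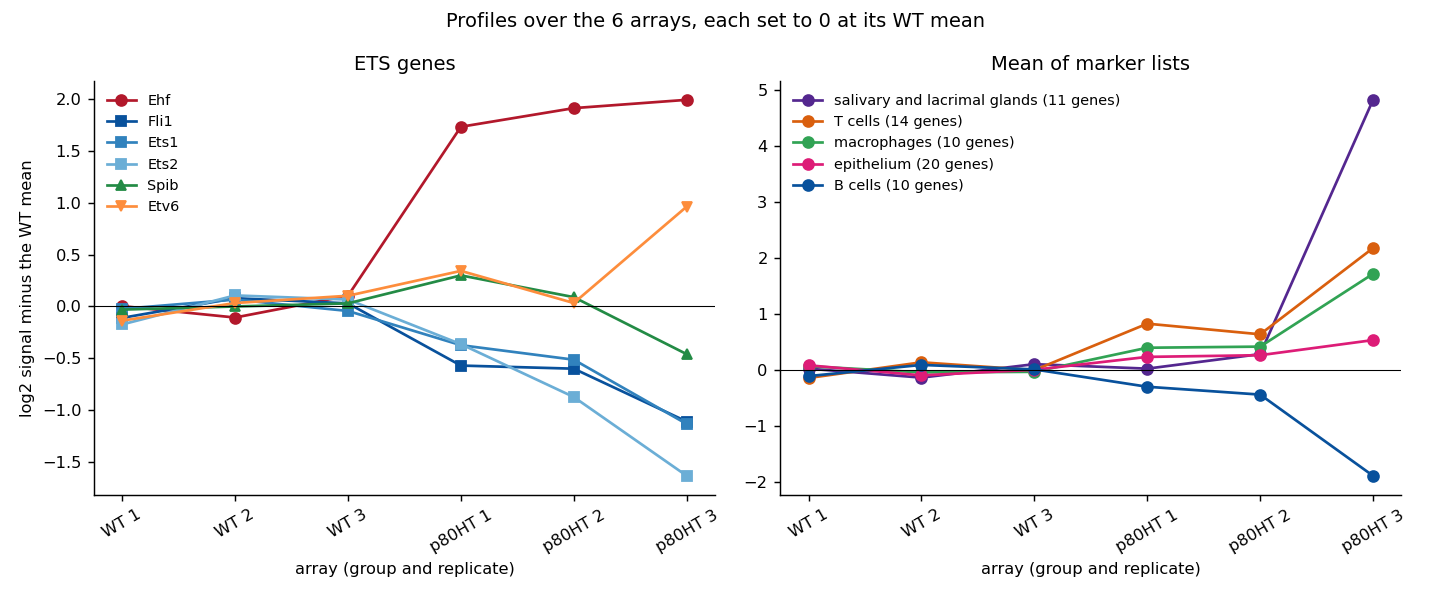
Log2 signal on each array minus the WT mean, for 6 ETS genes (left) and for the mean of 5 marker lists (right, with a wider vertical scale). The 3 replicates of a group have no order, and the lines only join the points of a gene or list. Ehf is about as high in the 3 p80HT mice (1.73, 1.91 and 1.99). The other ETS genes shown and all 5 lists are farthest from WT in p80HT replicate 3, the epithelial list at 0.23, 0.27 and 0.53.

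Other cells that carry ETS factors were described by the same kind of list. Of 10 plasma cell markers 1 rose past the threshold, where 1.22% of all genes did, and the median was 0.27, or 0.08 without p80HT replicate 3. This gene was Prdm1, the factor of plasma cell formation that Ets1 counters. It differed by 0.80 (limma adjusted p = 0.181), or by 0.67 (limma adjusted p = 0.0114) without that array. Prdm1 was the 1 marker of the 10 with all p80HT mice above all WT mice, and Irf4 (-0.78) the 1 with all below. Of all genes, 8.86% and 11.9% did so. Sdc1 and Xbp1 had overlapping groups and both stood at 0.06 without p80HT replicate 3. Of 10 macrophage markers 2 rose, where 1.22% of all genes did, and the median of 0.87 became 0.42 without p80HT replicate 3. The 2 were Adgre1 (0.72, limma adjusted p = 0.297) and Vsig4 (0.62, limma adjusted p = 0.157). They stood at 0.92 and 0.61 (limma adjusted p = 0.00164 and 0.0105) with that array left out. The linear signals of the 10 macrophage markers summed to 5274 to 5757 in WT, 7611 and 7602 in p80HT replicates 1 and 2, and 25733 in replicate 3. Adgre1 did not share that high value in replicate 3, where it was at 9.61 against 10.10 and 10.31 in replicates 1 and 2. C1qc was among the markers that did, at 12.33 against 9.20 and 9.35. The Vsig4 signals of 5.67 to 6.36 lay below the olfactory 95th percentile on all 6 arrays. Of 11 endothelial markers 1 fell, where 0.968% of all genes did, and the median was 0.55, or 0.10 without p80HT replicate 3. This gene was Pecam1, which lymphocytes also express. It differed by -0.92 (limma adjusted p = 0.172), or by -0.74 (limma adjusted p = 0.0055) with that array left out. Of 5 measured markers of plasmacytoid dendritic cells 0 passed, with a median of -0.39 and with Siglech at -0.44 and Ccr9 at -0.43 (limma adjusted p = 0.380 and 0.404). With p80HT replicate 3 left out, these 3 values were -0.35, -0.41 and -0.35. Ccr9 lay above the olfactory 95th percentile on only 1 of the 6 arrays. In 4 of the 5 markers all p80HT mice lay below all WT mice, as in 11.9% of all genes. Lair1 went the other way, with a difference of 0.63 that was 0.05 without p80HT replicate 3. Of 4 measured platelet markers 0 passed, with a median of 0.31 (0.32 with that array left out) and with Ppbp at 0.73 and Pf4 at 0.55 (limma adjusted p = 0.379 and 0.507). Without p80HT replicate 3, Ppbp passed at 0.79, where 2.01% of all genes passed as higher, and Pf4 stood at 0.26.

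The genes whose profile was most like that of Ehf were found by the root mean square difference of log2 signals over the 6 arrays, after each gene was centred on its own mean. The 5 nearest were Cd80 (0.14), B4galt6 (0.20), Nt5e (0.22), Adgrl2 (0.22) and Csf2rb (0.22). Cd80, a costimulatory ligand that activated and memory B cells carry, was at 8.79, 8.90 and 9.04 in WT and 10.79, 10.55 and 10.80 in p80HT. Nt5e, the surface enzyme CD73, which marks memory B cells among other cells, was at 8.78, 8.77 and 8.93 in WT and 10.31, 10.26 and 10.33 in p80HT. The 5 genes had differences of 1.47 to 1.89. Ranking by likeness to Ehf picks genes with its difference, so these values are a description too. The 3 nearest to Spib, namely Il17a (0.03), Gabrb2 (0.03) and Tmprss11c (0.04), had signals of 5.50 to 7.70, about the background level, and differed by -0.06 to -0.01 between groups.

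**Figure D4:**
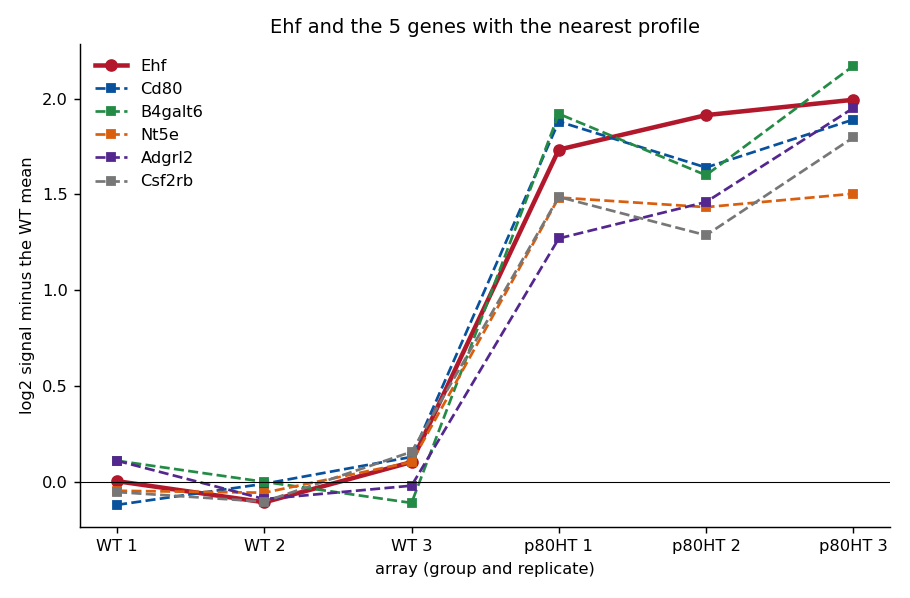
Log2 signal on each array minus the WT mean for Ehf (solid line) and the 5 genes nearest to it in profile (dashed lines). The 6 genes lie between -0.11 and 0.15 in the WT mice and between 1.27 and 2.17 in the p80HT mice. The lines join points that have no order within a group.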

How the data were processed

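Per the labels and the study's methods, the authors processed the 6 arrays with RMA in Partek, and the deposited values are log2 probeset signals. Versions, settings and the array's genome build are not given in the sources used here. Of 28853 probesets, the 21789 with 1 gene symbol were used, and the brightest was kept for each of 19938 genes. Genotype was the only term of a linear model per gene (lmFit and eBayes of limma 3.58.1, 2-sided, run under R 4.3.3). The code was tested on simulated data. Adjusted p-values are Benjamini-Hochberg over all genes. The methods' threshold (1.5-fold, unadjusted p under 0.01) defines the counts. Members and lists were chosen with earlier results of these data known. Genes named were the 10 ETS genes, other ETS and list genes past the threshold (at most 3 per list) or else those with the smallest p (4 other ETS genes, 2 per list), and the nearest profiles. Genes outside this rule were chosen after their values were seen. Alternatives left out each array, blocked on replicate number, weighted arrays, or changed the test, variance trend, normalization, centring, filter, probeset choice or threshold. Other thresholds were tried for the ETS genes only. For partner factors the alternatives, other thresholds excepted, were added after the data were seen. Each array is 1 mouse. Arrays give no depth, so their number limits the precision, and an exact permutation test of 3 against 3 cannot give a p below 0.10.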

Additional observations from a re-analysis of the deposited data

How the results depend on the processing

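The number of ETS genes past the threshold, 2 with all arrays, ranged from 1 to 4 when 1 array was left out. It was 1 (Ehf) without WT replicate 2 or WT replicate 3, and 4 (Ehf, Ets1, Ets2 and Fli1) without p80HT replicate 1. Of all 19938 genes, 243 passed as higher and 193 as lower with all arrays, and 242 and 247 without p80HT replicate 1. Without WT replicate 2 these counts were 137 and 69, and without WT replicate 3 they were 149 and 71. The number of ETS genes was also 1 (Ehf) at a 2-fold threshold, for which the share over all genes was not counted. By ordinary analysis of variance it was 1 (Ehf) too, where 119 of all genes passed as higher and 77 as lower. With each array centred on its median it was 3 (Ehf, Ets1 and Fli1). That centring moved the median of all genes to -0.09 and called 190 as higher and 308 as lower. Ehf kept its direction and its call under every alternative run, with a difference of 1.82 to 1.95 when 1 array was left out and 1.69 with array weights. Ehf minus the lymphoid mean was 2.05 to 2.39 and 1.89 likewise. The ETS genes were chosen with this contrast known, so these counts and calls describe the processing and are no support. Among other ETS genes, 1 (Etv3) passed with array weights and 0 under the other alternatives. Array weights called 478 of all genes as higher and 422 as lower. The ETS-regulated B cell genes past the threshold, 0 with all arrays, were 0 to 2 when 1 array was left out (P2ry10 and Bach2 without p80HT replicate 1, Bach2 without p80HT replicate 2 or 3). They were 1 with an intensity trend (P2ry10), 1 with array weights (Bach2), 1 with the mean of a gene's probesets (P2ry10) and 3 with median centring (Btk, P2ry10 and Bach2), all lower. Of all genes, 213 passed as lower with an intensity trend and 197 with the mean of a gene's probesets. Without p80HT replicate 2 or 3, 166 and 290 did. The cause of the changes in these counts was not tested. The filter at percentile 50 removed Elf3 and Elf5. Of the partner factors, 1 (Runx1) passed without p80HT replicate 1 and 0 under the other alternatives.

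The groups share replicate numbers, which were not taken as pairs. Deviations from the group mean correlated at 0.07, -0.24 and 0.07 for same-numbered mice 1, 2 and 3, and at -0.20 to 0.29 for other mice. With 3 mice per group the deviations of a gene sum to 0 in each group, so these values cannot show or exclude pairs. With the replicate block, 3 ETS genes (Ehf, Ets2 and Fli1), 1 ETS-regulated gene (Bach2) and 0 other ETS genes passed. Of all genes, 363 then passed as higher and 204 as lower.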
